A study of Mus musculus with 16 samples.

Results

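The comparison described here set the ends of mature miRNAs in late libraries, made 8, 10 and 12 h after serum was given back to quiescent mouse fibroblasts, against early libraries made at 0, 1 and 2 h. Each phase held 6 libraries, 1 from each of 2 independent experiments at each time, so 12 of the 16 libraries analysed entered the comparison and the 4 libraries of 4 and 6 h were kept apart from it. The miRNAs were those with a mean of 200 CPM (counts scaled to a common total of miRNA reads) or more over the 12 libraries, which held for 112 of 1167 mature miRNAs. For each of them the share of its own reads was taken in 8 classes of sequence end, and the experiment number was a block in every test. Just inside the abundance limit lay miR-671-3p, miR-155-5p and miR-17-5p, at 202, 203 and 205.5 CPM, and just outside it miR-140-5p, miR-99b-3p and miR-107-3p, at 188, 187 and 183 CPM.

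All libraries came from 3T9 cells, an immortalised line derived from mouse embryo fibroblasts, that had been kept without serum for 72 h. Late cells had then had complete medium with 10% fetal bovine serum for 8, 10 or 12 h. Of the early cells, those of 1 and 2 h had also had serum, and those of 0 h had not, so the early group is the start of the response and not an untreated control. Small RNA libraries were built from 1000 ng of total RNA with an Illumina TruSeq kit, and a further time point named in the design text was not analysed here.

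A miRNA is cut from its hairpin by Drosha and Dicer, and the position of each cut sets where the mature strand starts and ends. A read can therefore match the annotated reference, be shorter than it (trimmed), or carry more bases of the hairpin at an end (templated extension). Terminal nucleotidyl transferases such as TUT4 and TUT7, which add U, and TENT2 (GLD2), which adds A, extend 3′ ends with bases that are not in the hairpin (non-templated addition). A changed 5′ end moves the seed, bases 2 to 8 of the miRNA, which pairs with target mRNAs.

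The classes used were reference reads, trimmed reads, 3′ templated extension, non-templated 3′ A, U, C and G, and 5′ templated extension, with meanings read from the class names. Which end the trimmed reads had lost is not given in the sources used here. The classes of 1 miRNA are shares of the same total, so a rise in one is met by falls in others and the calls within a miRNA are not independent.

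The mature sequences of the miRNAs on which the results turn are shown from RefSeq (GRCm38.p6), 5′ to 3′, because the bases at their ends are what the classes describe. Capitals mark the seed and, at the right, the 3 hairpin bases that follow the annotated 3′ end, which are the bases a templated extension would add. For miR-92a-3p and let-7c-5p the bases after the end differ between 2 hairpins and are not shown.
miR-21a-5p: uAGCUUAUcagacugauguugaCUG
miR-30c-5p: uGUAAACAuccuacacucucagcUGU
miR-92b-3p: uAUUGCACucgucccggccuccGGC
miR-92a-3p: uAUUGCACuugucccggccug
miR-335-3p: uUUUUCAUuauugcuccugaccCCC
miR-29a-3p: uAGCACCAucugaaaucgguuaUAA
miR-222-3p: aGCUACAUcuggcuacugggucuCUG
miR-221-5p: aCCUGGCAuacaauguagauuucuguGUU
miR-191-5p: cAACGGAAucccaaaagcagcugUUG
miR-26a-5p: uUCAAGUAauccaggauaggcuGUG
miR-27b-3p: uUCACAGUggcuaaguucugcACC
miR-146b-5p: uGAGAACUgaauuccauaggcuGUG
let-7b-5p: uGAGGUAGuagguugugugguuUCA
let-7c-5p: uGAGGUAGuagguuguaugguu

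The miR-92a-3p and miR-92b-3p pair shares a seed, as does the let-7b-5p and let-7c-5p pair. In GRCm38 with the GENCODE M21 annotation, miR-21a-5p lies at chr11:86584120-86584141 on the minus strand, in an exon of Vmp1. The strand of miR-335-3p lies at chr6:30741354-30741375 (plus), in an intron of Mest, and that of miR-29a-3p at chr6:31062673-31062694 (minus), outside any other annotated gene. Both miR-222-3p, at chrX:19146901-19146923, and miR-221-5p, at chrX:19146344-19146369, are on the minus strand, outside any other annotated gene. Of 2 hairpins for miR-30c-5p, Mir30c-2 places it at chr1:23291714-23291736 (plus), in an exon of the lincRNA Gm27028, and Mir30c-1 at chr4:120769584-120769606 (minus), in an intron of Nfyc. Of the 112 miRNAs, 100 were matched to a RefSeq sequence.

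Late libraries held 6028554 to 7147600 miRNA reads and early libraries 6378021 to 7280548, and the 112 miRNAs took 98.98% to 99.1% of the reads of a library. Of the miRNAs typical of the labelled cell type, 14 of fibroblasts and mesenchyme summed to 362752 to 418577 CPM in late libraries and 357299 to 372362 CPM in early ones. The 6 blood and serum miRNAs summed to 240 to 352 CPM in late libraries and 212.2 to 301 CPM in early ones, none of them reaching the abundance limit. The only liver miRNA looked for, miR-122-5p, was at most 0.597 CPM in late libraries and 0.314 CPM in early ones. The part of serum or other cells in the end shares was not tested.

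Ends shifted in most miRNAs. Of 622 shares with a mean of at least 10 reads, 315 (50.6%) passed edgeR's quasi-likelihood test at a Benjamini-Hochberg adjusted p under 0.05, 181 (29.1%) higher and 134 (21.5%) lower in late libraries. The called shares had the same sign in both experiments in 314 of 315 cases, the exception being the C share of miR-30b-5p. The calls were made from these same 12 libraries with both experiments in the fit, which favours a shared sign. The count of shared signs is therefore not a separate check of the calls. Tested within 1 experiment at a time, 210 shares passed in the first and 193 in the second, and all that passed in both had the same sign. The 6 late values lay entirely outside the 6 early ones for 112 shares (18%), 111 of them called. At 4 and 6 h, times the test did not use, the mean share lay between the early and late means for 280 of the 315 called shares. No such count is given here for the shares that were not called, so this one has no rate to be judged against. At least 1 class was called in 101 of the 112 miRNAs, and the other 11 had none.

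**Figure D1:**
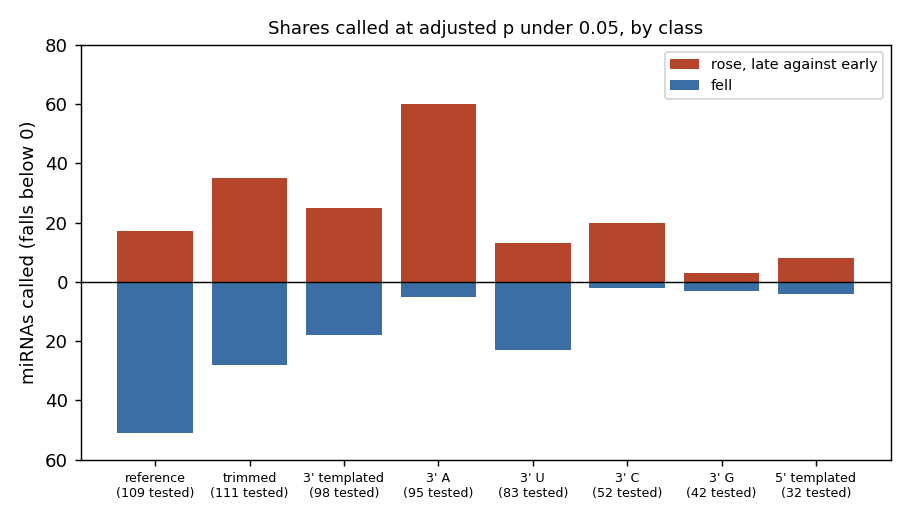
Number of miRNAs (vertical axis) whose share of a class was called higher (bars above 0) or lower (bars below 0) in late than in early libraries, for each of 8 classes. Non-templated A stands out by its rises (60, against 5 falls) and the reference class by its falls (51, against 17 rises).

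The classes differed in how often and in which direction they moved. Reference reads were called in 68 of 109 miRNAs (62.4%), with 17 rises (15.6%) and 51 falls (46.8%). Trimmed reads were called in 63 of 111 (56.8%), with 35 rises (31.5%) and 28 falls (25.2%), and 3′ templated extension in 43 of 98 (43.9%), with 25 rises (25.5%) and 18 falls (18.4%). Non-templated A was called in 65 of 95 (68.4%), with 60 rises (63.2%) and 5 falls (5.26%). Non-templated U was called in 36 of 83 (43.4%), with 13 rises (15.7%) and 23 falls (27.7%), and C in 22 of 52 (42.3%), with 20 rises (38.5%) and 2 falls (3.85%). The G share was called in 6 of 42 (14.3%), with 3 rises (7.14%) and 3 falls (7.14%), and 5′ templated extension in 12 of 32 (37.5%), with 8 rises (25%) and 4 falls (12.5%).

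Summed over the reads of all 112 miRNAs, 6 of the 8 classes moved by an exact 2-sided permutation test within experiments, whose smallest possible p is 0.005 before adjustment over the classes. Templated 3′ extension took 10.1% ± 0.714 of reads in late libraries and 8.68% ± 0.0902 in early ones (SD, n = 6 each, exact permutation adjusted p = 0.0133). The A share was 3.07% ± 0.592 in late and 2.63% ± 0.524 in early libraries (n = 6 each, exact permutation adjusted p = 0.0133), and the C share 0.969% ± 0.229 in late and 0.496% ± 0.238 in early libraries (n = 6 each, exact permutation adjusted p = 0.0133). The A share differed more between the experiments than between the phases, and the C share nearly as much: A was 2.56% late and 2.16% early in the first and 3.58% late and 3.09% early in the second, and C 1.15% late and 0.708% early in the first and 0.785% late and 0.283% early in the second.

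The other 3 sums that passed fell. The U share was 4.49% ± 0.487 in late and 4.98% ± 0.340 in early libraries (n = 6 each, exact permutation adjusted p = 0.02). Reference reads took 52.9% ± 0.959 in late and 54.3% ± 0.442 in early libraries, and trimmed reads 25.3% ± 0.389 in late and 26.0% ± 0.415 in early libraries (n = 6 each, exact permutation adjusted p = 0.0333 for both). These 2 calls did not hold when certain libraries were left out. The reference difference was -1.41 percentage points, and it no longer passed when the first experiment's 0 h library (-1.39) or 12 h library (-1.35), or the second experiment's 8 h library (-1.40) or 12 h library (-1.05), was dropped. The trimmed difference was -0.720 points, and it no longer passed when the first experiment's 0 h library (-0.639) or 10 h library (-0.616), or the second experiment's 2 h (-0.620), 8 h (-0.715) or 10 h library (-0.655), was dropped. No call was made for G (0.108% late, 0.112% early) or for 5′ extension (0.261% late, 0.266% early).

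**Figure D2:**
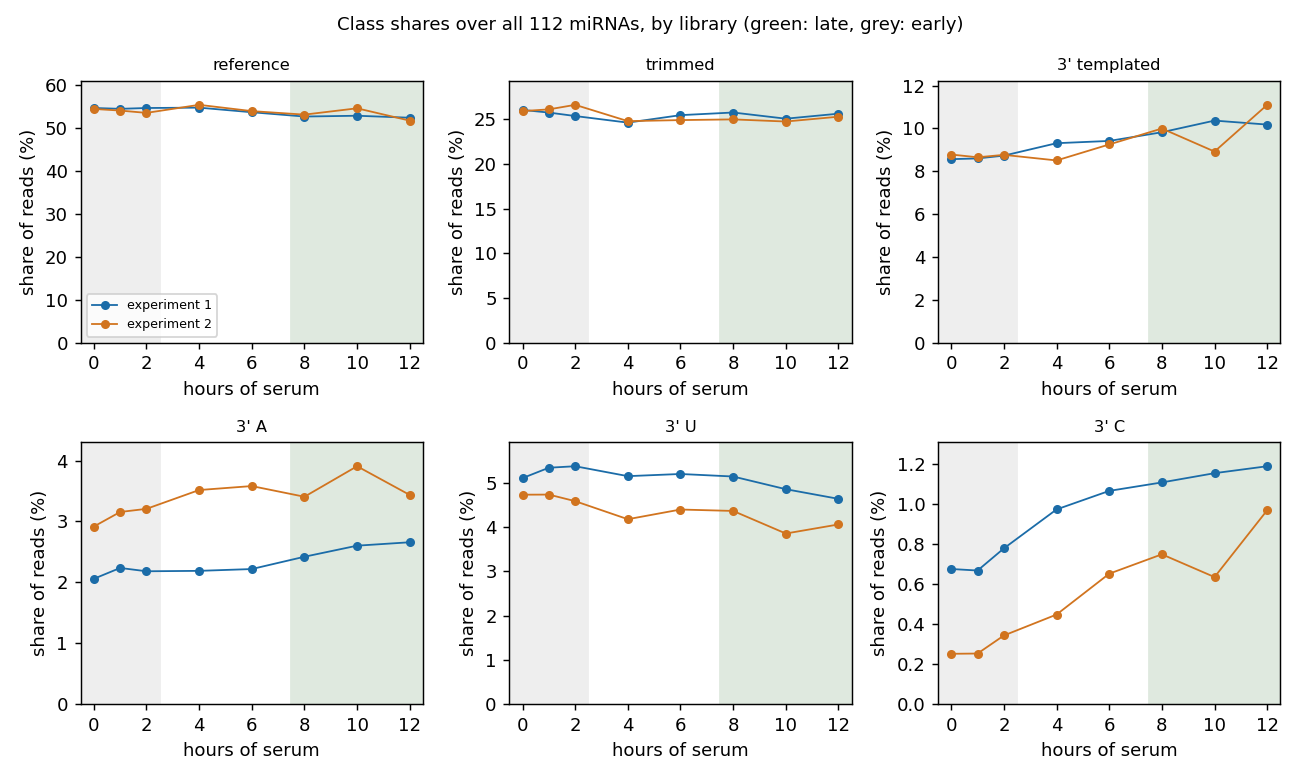
Share of all reads of the 112 miRNAs (percent, axes from 0) in 6 classes against hours of serum, 1 line per experiment, with the early times shaded grey and the late times green. The templated 3′ and C shares are higher at late than at early times in both experiments, the second experiment's 10 h library lying below its 8 and 12 h neighbours in both, and the experiments run at different levels in A, U and C.

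A single miRNA carried most of 2 of these sums. The oncogenic and growth-linked miR-21a-5p contributed 1.24 of the 1.38 percentage points by which 3′ templated extension rose and 0.428 of the 0.473 points by which C rose. Its level also rose, to 77109 CPM in late libraries, against 63753 CPM in early ones (log2 change 0.41 ± 0.10). The sums thus mix changes of level with changes of ends, and these were not separated. To the reference sum miR-22-3p, whose level rose, added 2.31 points, though its reference share was not called changed. For miR-21a-5p, 63.5% of all C reads in late libraries and 37.8% in early ones were its own, and 36.3% of the 3′ templated reads in late libraries and 27.8% in early ones. With miR-21a-5p left out, an alternative chosen after the data were seen, the templated extension difference was 0.254 points, the reference difference -0.495 and the trimmed difference -0.226, and none of these passed. The C difference was 0.0546 points and still passed (exact permutation adjusted p = 0.02). As the median over the 112 miRNAs, which gives each miRNA equal weight, the late minus early difference was 0.0442 points for templated extension and 0.0045 points for C, neither passing, and that for U was 0.129 points, of the opposite sign.

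Among reference reads, the 2 largest falls in percentage points were those of miR-92b-3p and miR-335-3p. The reference share of miR-92b-3p was 33.3% to 38.8% with a median of 34.6% in late libraries, and 52.7% to 56.4% with a median of 54.0% in early libraries (log2 ratio -0.62 ± 0.04 SE, adjusted p = 5.7e-07). The groups did not overlap. Its trimmed share was 33.9% in late and 24.1% in early libraries at the median (log2 ratio 0.48 ± 0.04) and its A share 12.2% and 7.35% (0.63 ± 0.07), while its level was not called changed (192 CPM late, 238 CPM early). Its relative with the same seed, miR-92a-3p, went the other way in this class. Of the 2 hairpins of miR-92a-3p, 1 lies in the miR-17-92 cluster and the other on chromosome X, and their reads were not told apart. The small reference share of miR-92a-3p was 1.88% in late and 1.26% in early libraries at the median (log2 ratio 0.55 ± 0.04, adjusted p = 1.4e-06). Its trimmed (0.38 ± 0.05) and A (0.33 ± 0.06) shares rose, as those of miR-92b-3p did.

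The 2 largest reference rises were those of miR-149-5p and miR-221-5p. In miR-221-5p, the less abundant arm of a growth-factor-linked hairpin, the reference share was 73.5% to 76.6% with a median of 75.8% in late libraries, and 59.0% to 69.5% with a median of 61.0% in early libraries (log2 ratio 0.26 ± 0.04, adjusted p = 1.9e-04). The groups did not overlap, and its trimmed share was 17.3% late and 31.7% early at the median (-0.83 ± 0.09). In miR-149-5p the reference share was 37.8% to 59.9% with a median of 48.9% in late libraries, and 22.7% to 49.5% with a median of 27.7% in early libraries (log2 ratio 0.52 ± 0.20, adjusted p = 0.046). These groups overlapped, and the call was lost in 9 of 12 fits that left out 1 library, with log2 ratios from 0.41 to 0.69 over the 12. It was also lost with 0 h left out (0.35), in the first experiment alone (0.35) and in the second alone (0.68).

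Trimming moved most in miR-335-3p and miR-92b-3p, where it rose, and in miR-149-5p and miR-29a-3p, where it fell. The trimmed share of miR-335-3p, encoded in the imprinted gene Mest, was 19.4% to 27.4% with a median of 20.4% in late libraries, and 9.48% to 13.3% with a median of 10.5% in early libraries (log2 ratio 1.01 ± 0.08, adjusted p = 1.3e-06). In miR-29a-3p, a regulator of collagen genes, it was 26.2% to 29.6% with a median of 26.8% in late libraries, and 39.4% to 42.2% with a median of 41.8% in early libraries (log2 ratio -0.59 ± 0.03, adjusted p = 1.9e-07). Neither pair of groups overlapped. The trimmed share of miR-149-5p was 42.9% late and 60.7% early at the median (-0.42 ± 0.14, adjusted p = 0.023), and was no longer called when either 1 h library (-0.40 for the first experiment, -0.36 for the second) or the second experiment's 0 h library (-0.36) was left out. The call was also lost with 0 h left out (-0.34) and in the first experiment alone (-0.26). At 4 and 6 h this share averaged 28.7%, below the late mean of 42.5% and the early mean of 57.0%.

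The trimmed shares are set here beside the change of level of each miRNA, and no difference between the level groups was tested. Of the 401 miRNAs tested for level, 60 rose and 60 fell in late libraries (29.9% called), and among the 112 the level of 22 rose and that of 17 fell. Over all 111, trimmed shares fell in 25.2% and rose in 31.5%. Of the 22 miRNAs whose level rose, trimmed shares fell in 14 and rose in 2, with a median log2 ratio of -0.33. Of the 17 whose level fell, trimmed shares rose in 11 and fell in 3, with a median of 0.23. Of 72 with no level call, 22 rose and 11 fell, with a median of 0.02, against a median of 0.00 over all 111. Of the 22, 5 were under 200 CPM in early libraries and met the abundance limit through the late ones (miR-149-5p, miR-92a-1-5p, miR-17-5p, miR-155-5p and miR-671-3p), and 2 of the 17 were under it in late libraries. When the limit was raised to 1000 CPM, a choice made after the data were seen, trimmed shares fell in 8 and rose in 2 of 14 whose level rose, and rose in 5 and fell in 2 of 9 whose level fell. The 2 miRNAs whose level dropped most went against most of the others: miR-30c-5p, at 688 CPM late and 2160 CPM early, had trimmed shares of 1.25% late and 2.40% early at the median (-1.12 ± 0.19), and in miR-30b-5p trimming also fell. Levels and shares are computed from the same reads, and scaling levels to total counts in place of TMM gives a median level change over all miRNAs tested of -0.15 (log2), against -0.02 with TMM, and turns the level calls into 44 rises and 120 falls. With those calls trimming fell in 12 and rose in 1 of the 17 miRNAs whose level rose, and rose in 19 and fell in 5 of the 43 whose level fell.

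**Figure D3:**
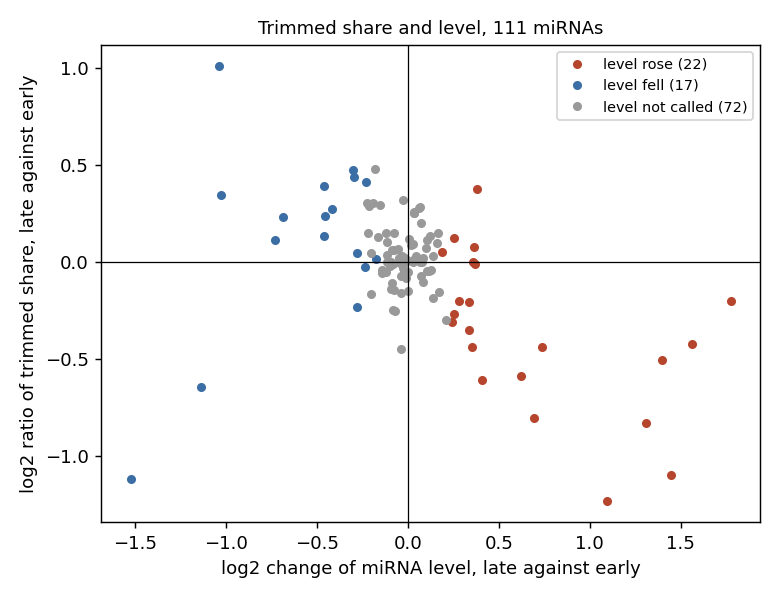
Log2 ratio of the trimmed share (vertical) against the log2 change of level (horizontal), late against early, for 111 miRNAs, coloured by level call. The 22 with a raised level lie mostly below 0 and the 17 with a lowered level mostly above it, with miR-30c-5p and miR-30b-5p as exceptions at the lower left.

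Templated 3′ extension rose most, in percentage points, in miR-30c-5p and miR-21a-5p. Its share of miR-30c-5p reads was 78.7% to 84.3% with a median of 81.4% in late libraries, and 66.1% to 73.6% with a median of 70.6% in early libraries (log2 ratio 0.22 ± 0.03, adjusted p = 3.1e-05). The reference share of miR-30c-5p was 9.22% late and 21.02% early at the median (-1.17 ± 0.09), so extended reads held most of this miRNA in both phases. In miR-21a-5p the extended share was 45.4% to 48.1% with a median of 46.7% in late libraries, and 35.3% to 39.9% with a median of 37.0% in early libraries (log2 ratio 0.32 ± 0.03, adjusted p = 2.9e-06). Neither pair of groups overlapped. The 2 largest falls were those of miR-181d-5p, at 14.3% late and 19.4% early at the median (-0.48 ± 0.07), and miR-26b-5p, at 73.2% late and 77.5% early (-0.08 ± 0.01), and these groups did not overlap either. With templated reads alone as denominator the fall of miR-26b-5p was -0.02 and was not called (edgeR adjusted p = 0.10). All 4 members of the miR-181 list fell in this class, beside 18.4% of all 98 miRNAs, with a median of -0.36, though miR-181b-5p and miR-181d-5p are near-identical and how reads were split between them is uncertain.

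In miR-21a-5p reference and trimmed reads gave way to extended and C-ended ones. The reference share was 34.2% to 37.4% with a median of 36.6% in late libraries, and 43.8% to 49.5% with a median of 48.0% in early libraries (log2 ratio -0.39 ± 0.03, adjusted p = 1.3e-06). The trimmed share was 6.79% late and 10.8% early at the median (-0.61 ± 0.05). The non-templated C share was 6.66% to 9.49% with a median of 7.79% in late libraries, and 2.37% to 3.68% with a median of 2.61% in early libraries (log2 ratio 1.44 ± 0.12, adjusted p = 2.9e-06). None of these groups overlapped. Over 0, 1, 2, 4, 6, 8, 10 and 12 h the C share was 2.37%, 2.54%, 3.63%, 5.95%, 6.31%, 6.66%, 6.77% and 6.96% in the first experiment, and 2.48%, 2.69%, 3.68%, 6.83%, 9.36%, 8.61%, 9.49% and 9.17% in the second. Most of the change had taken place by 6 h, and the experiments parted from 4 h on. The first hairpin base after the reference end of miR-21a-5p is a C, as the sequence shows, and the table does not give where in a read the non-templated C lies. Only 2 of 19 miRNAs followed by C in their hairpin had enough C reads to be tested.

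**Figure D4:**
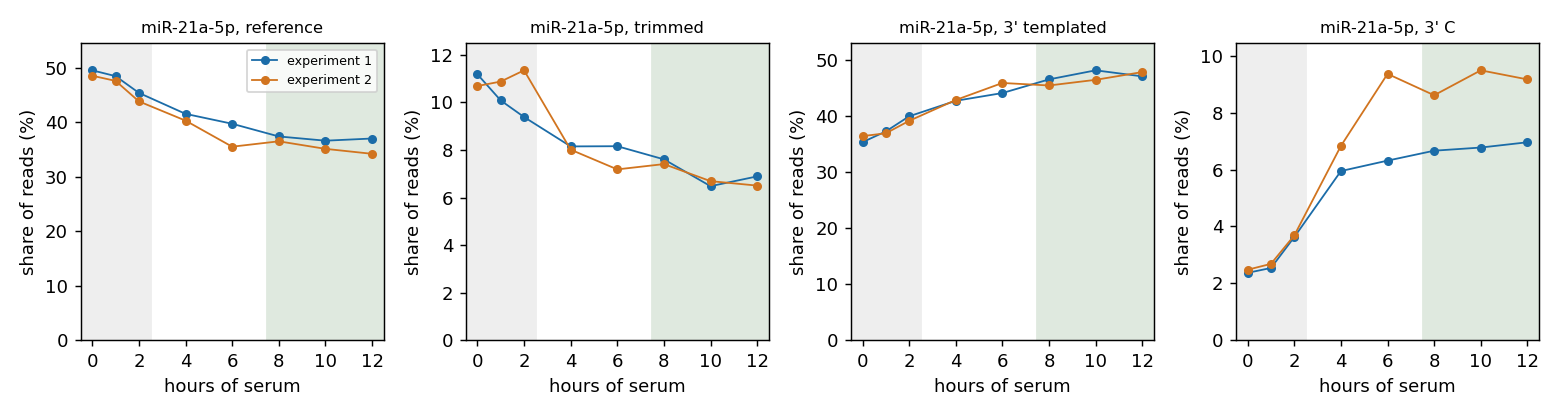
Share of miR-21a-5p reads (percent, axes from 0) that were reference, trimmed, 3′ templated or ended in non-templated C, against hours of serum, 1 line per experiment, early times shaded grey and late times green. Reference and trimmed shares fall and the other classes climb through 4 and 6 h in both experiments.

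Non-templated A was the class with the most one-sided change. Its median log2 ratio was 0.29 over 95 miRNAs, 60 of which rose and 5 of which fell. Relative to a common shift of the class, estimated by TMM and removed in an alternative fit, 25 rose and 27 fell. Without the experiment as a block 23 rose and 2 fell. By arm, 39 of 56 from the 5p arm rose and 2 fell, with a median of 0.34, and 21 of 39 from the 3p arm rose and 3 fell, with a median of 0.21. The difference between arms was not tested.

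The 2 largest A rises in percentage points were those of miR-30b-5p and miR-191-5p. The A share of miR-30b-5p was 5.70% to 10.5% with a median of 7.62% in late libraries, and 1.18% to 4.22% with a median of 1.82% in early libraries (log2 ratio 1.91 ± 0.25, adjusted p = 6.1e-05). That of the abundant miR-191-5p was 10.5% to 12.8% with a median of 11.5% in late libraries, and 5.65% to 7.60% with a median of 6.69% in early libraries (log2 ratio 0.80 ± 0.07, adjusted p = 2.9e-06). Neither pair of groups overlapped. The level of miR-30b-5p fell to 370 CPM in late libraries, against 888 CPM in early ones, and that of miR-191-5p was not called changed (11323 CPM late, 12387 CPM early).

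The 5 falls in A were those of miR-130b-3p, miR-146b-5p, miR-222-3p, miR-27a-3p and miR-31-5p. In miR-130b-3p the A share was 26.6% to 36.7% with a median of 31.03% in late libraries, and 31.03% to 39.8% with a median of 36.7% in early libraries (log2 ratio -0.19 ± 0.03, adjusted p = 6.4e-04), and the groups overlapped. In the NF-κB-linked miR-146b-5p it was 0.184% late and 0.442% early at the median, from a mean of only 13.8 A reads per library (-1.10 ± 0.19, adjusted p = 4.9e-04). The reference share of miR-146b-5p was 2.03% late and 4.33% early at the median (-1.05 ± 0.08), and its groups did not overlap. This miRNA is near-identical to miR-146a-5p, so how reads were split between them is uncertain.

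**Figure D5:**
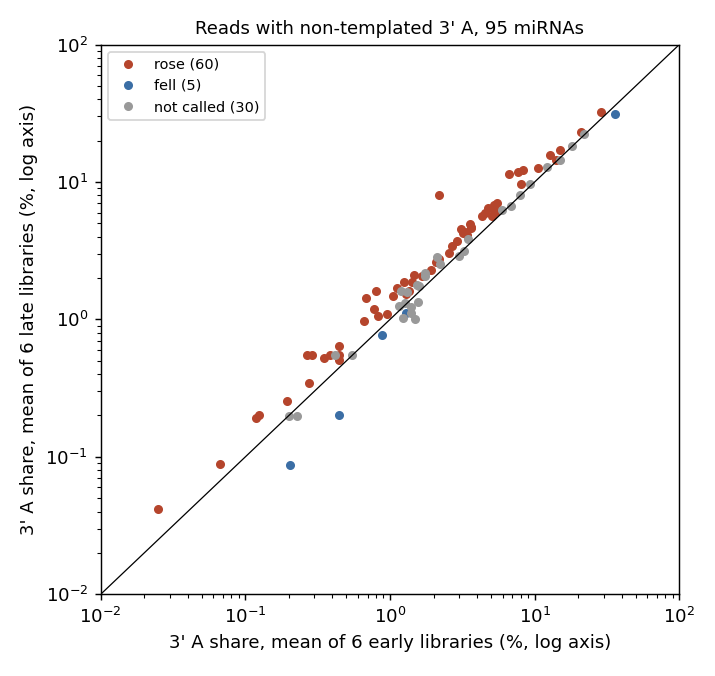
Mean share of reads with non-templated 3′ A in 6 late libraries (vertical, log axis) against 6 early libraries (horizontal, log axis) for 95 miRNAs, coloured by call. Most of the 60 rises lie just above the line of equal shares, and miR-30b-5p lies farthest above it.

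Non-templated U fell more often than it rose. In miR-351-5p, which is encoded close to miR-322, the U share was 4.63% to 5.45% with a median of 5.0% in late libraries, and 7.88% to 8.68% with a median of 8.43% in early libraries (log2 ratio -0.72 ± 0.05, adjusted p = 5.1e-07), and the groups did not overlap. In miR-24-3p it was 33.9% to 35.6% with a median of 35.1% in late libraries, and 35.0% to 43.2% with a median of 38.5% in early libraries (-0.16 ± 0.05, adjusted p = 0.012), with overlap. Both arms of miR-322 rose: miR-322-3p, the most U-ended of the named miRNAs, was at 57.8% late and 53.7% early at the median (0.09 ± 0.02, adjusted p = 0.0055), and miR-322-5p at 27.2% late and 24.4% early (0.16 ± 0.03, adjusted p = 4.6e-04). The groups overlapped for both arms. The rise of miR-322-3p was not called in the first experiment alone (0.08, edgeR adjusted p = 0.13) or in the second alone (0.11, edgeR adjusted p = 0.052). The 23 falls included miR-143-3p, which held 45.8% of all U reads in late libraries and 44.8% in early ones, at 14.8% late and 15.7% early at the median (-0.10 ± 0.03). Of 39 miRNAs from the 3p arm 4 rose and 15 fell, and of 43 from the 5p arm 9 rose and 8 fell.

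Beside miR-21a-5p, the largest C rise in percentage points was that of miR-30a-3p, at 2.91% late and 1.14% early at the median, from a mean of 31.2 C reads per library (log2 ratio 1.29 ± 0.27, adjusted p = 0.0019). The groups overlapped, and miR-30a-3p is near-identical to miR-30e-3p, so how reads were split between them is uncertain. The 2 falls were those of both arms of miR-27b, with a log2 ratio of -0.57 ± 0.19 for miR-27b-5p and -0.16 ± 0.04 for miR-27b-3p. The call for miR-27b-5p was lost when the first experiment's 1 h (-0.53) or 8 h library (-0.41) was left out. Both falls lost their call with limma on logit shares (limma adjusted p = 0.072 for miR-27b-5p and 0.070 for miR-27b-3p). Neither was called in the second experiment alone. The fall of miR-27b-5p was not called in the first experiment alone either (-0.54, edgeR adjusted p = 0.059), nor with 0 h left out (-0.58, edgeR adjusted p = 0.055). The C share of miR-27b-5p averaged 3.05% late and 4.47% early in the first experiment, and 0.088% late and 0.187% early in the second. C shares differed widely between experiments: that of let-7c-5p, called higher late (0.43 ± 0.08), was 1.12% to 1.19% late and 0.808% to 0.947% early in the first, and 0.0789% to 0.0907% late and 0.0475% to 0.0696% early in the second.

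The 6 calls of G were small. Rises were called in miR-335-3p (0.65 ± 0.23), let-7c-5p (0.32 ± 0.08) and let-7b-5p (0.25 ± 0.09), and falls in miR-140-3p (-0.62 ± 0.18), miR-130b-3p (-0.40 ± 0.11) and miR-92a-3p (-0.16 ± 0.06). Leaving out 1 library ended the call of let-7b-5p in 7 of 12 fits, of miR-335-3p in 6 and of miR-92a-3p in 5, and left 3 calls in all when the second experiment's 0 h or 10 h library was left out. The G shares of let-7b-5p, miR-335-3p and miR-92a-3p were not called in either experiment alone or with 0 h left out. That of miR-335-3p rests on a mean of 13.5 G reads per library, and was not called with DESeq2 (0.64, DESeq2 adjusted p = 0.077).

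Templated 5′ extension, which moves the seed, could be tested in 32 of the 112 miRNAs and was called in 12. In miR-29a-3p the 5′ extended share was 4.34% to 6.13% with a median of 5.07% in late libraries, and 1.93% to 3.36% with a median of 2.71% in early libraries (log2 ratio 0.97 ± 0.07, adjusted p = 1.3e-06), and the groups did not overlap. In miR-335-3p it was 8.92% late and 7.46% early at the median (0.25 ± 0.07, adjusted p = 0.0086), with overlap. Most of this rise came from the second experiment, at 2.38 percentage points, against 0.48 in the first. It was not called in the first experiment alone (0.09, edgeR adjusted p = 0.39). The largest fall was that of miR-214-3p, the miRNA with the largest 5′ extended share among those named, at 12.4% to 15.6% with a median of 13.6% in late libraries, and 15.2% to 17.2% with a median of 16.7% in early libraries (-0.25 ± 0.05, adjusted p = 0.0013). That of miR-222-3p was 0.529% late and 0.975% early at the median (-0.82 ± 0.17, adjusted p = 0.0019), from a mean of 86.8 such reads per library.

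Several miRNAs changed in most of their classes, and miR-335-3p in all 7 that could be tested. Its level fell to 2907 CPM in late libraries, against 6512 CPM in early ones (log2 change -1.04 ± 0.09). Its reference share was 61.6% to 71.1% with a median of 68.0% in late libraries, and 78.6% to 81.6% with a median of 80.4% in early libraries (log2 ratio -0.25 ± 0.02, adjusted p = 6.1e-06), without overlap. Its A and U shares rose (0.51 ± 0.08 and 0.41 ± 0.07) beside the trimmed, 5′ and G shares, and its 3′ templated share fell (-0.53 ± 0.20), a call lost in 8 of 12 fits that left out 1 library, with values from -0.59 to -0.38 in those 8.

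In miR-222-3p, a growth-factor-linked miRNA, all 6 testable classes changed. Templated 3′ extension, already most of its reads, was 94.3% to 96.1% with a median of 95.4% in late libraries, and 88.2% to 93.0% with a median of 90.4% in early libraries (log2 ratio 0.07 ± 0.01, adjusted p = 5.7e-04). The reference (-1.08 ± 0.14), trimmed (-1.23 ± 0.17), A (-1.24 ± 0.26), U (-1.18 ± 0.22) and 5′ shares all fell, and apart from the 5′ share none of these groups overlapped. Its level rose to 2415 CPM in late libraries, against 1241 CPM in early ones (1.09 ± 0.08). The A and U shares rest on means of 15.6 and 13.9 reads per library.

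The remaining miRNAs with 6 classes called were miR-27b-3p, miR-26a-5p, miR-92a-3p and let-7c-5p. In miR-27b-3p the trimmed share was 48.8% to 55.9% with a median of 51.0% in late libraries, and 42.3% to 45.5% with a median of 42.5% in early libraries (log2 ratio 0.26 ± 0.03, adjusted p = 2.4e-05). Its reference share was 33.0% late and 40.5% early at the median (-0.30 ± 0.04), and neither pair of groups overlapped. In miR-26a-5p the reference share alone fell, to 80.5% in late libraries, against 85.2% in early ones at the median (-0.08 ± 0.01), and the trimmed (0.48 ± 0.06), 3′ templated (0.49 ± 0.05), A (0.41 ± 0.04), U (0.26 ± 0.03) and C (0.33 ± 0.05) shares rose. In let-7c-5p the reference share was 76.7% late and 80.0% early at the median (-0.06 ± 0.01). With the class-wide shift removed, the let-7c-5p reference (-0.02), A (0.10) and C (0.11) shares, the miR-92a-3p A (0.08) and G (-0.12) shares and the miR-335-3p 5′ share (0.15) were no longer called. Neither were the miR-26a-5p C share (-0.081, adjusted p = 0.43) and the miR-27b-3p A share (-0.0018, adjusted p = 0.98), which changed sign. Reads of miR-27b-3p and miR-27a-3p, of miR-29a-3p and miR-29c-3p, and of let-7c-5p, let-7a-5p and let-7b-5p are near-identical, so how reads were split between them is uncertain.

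Among the 5 most abundant miRNAs the size of the change varied. For miR-22-3p, reference reads were 97.0% late and 97.1% early at the median (log2 ratio -0.00 ± 0.01, adjusted p = 0.93), and neither its trimmed nor its 3′ templated share was called. Its A share, 0.498% late and 0.444% early at the median (0.18 ± 0.02), and its 5′ share, 0.00762% late and 0.00646% early (0.31 ± 0.11), rose. The same 3 classes were not called in miR-99b-5p, whose reference share was 53.8% late and 53.5% early (0.01 ± 0.01, adjusted p = 0.39). Its A (0.16 ± 0.02) and C (0.14 ± 0.03) shares rose and its U share fell (-0.08 ± 0.02). In miR-143-3p, a smooth muscle and fibroblast miRNA, only the trimmed share of these 3 was called, at 34.5% late and 31.9% early at the median (0.11 ± 0.04, adjusted p = 0.037), and the call was lost in 8 of 12 fits that left out 1 library, at 0.09 to 0.11. The other 2, miR-27b-3p and miR-21a-5p, changed in all 3 of these classes.

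Among the family lists, let-7 with miR-98 (let-7 miRNAs restrain growth genes) had A rises in all 10 members, with a median of 0.36 beside 0.29 over all 95 and a range from 0.05 in let-7i-5p to 0.56 in let-7d-3p. With the common shift removed 6 rose and 1 fell, and without the block none was called, while the median was 0.36. The A level of these members differs between experiments, as for the class as a whole. Several are near-identical: let-7a-5p with let-7b-5p, let-7c-5p, let-7e-5p and let-7f-5p, and let-7g-5p with let-7i-5p. How reads were split between them is uncertain, so the 10 rises may not be separate observations. The seed of let-7d-3p differs from that of the other members. Over all 95 miRNAs, A rose in 63.2%. The miR-15/16 group had no A call in 5 members (median 0.14). The list of miR-99, miR-100 and miR-125 had 5 rises in 6 (0.17), miR-30 had 4 in 6 (0.39), and the list of miR-199 and miR-214 had 3 in 3 (0.45). With the common shift removed, the list of miR-99, miR-100 and miR-125 had 1 rise and 4 falls, miR-30 had 2 rises and 1 fall, and the list of miR-199 and miR-214 had 2 rises.

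In the list of miRNAs known as growth-factor-induced, the trimmed share fell in 7 of 8 members and rose in none, beside 25.2% falls and 31.5% rises over all 111, with a median of -0.53 beside 0.00. With the class-wide shift removed 7 fell and 1 rose. Its A share rose in 2 and fell in 3 of 7, with a median of -0.18 beside 0.29 over all 95, and 3′ templated extension rose in 4 of 7 and fell in none, beside 25.5% rises over all 98. With the shift removed the A share rose in 1 and fell in 5. Trimming of miR-221-3p was 47.3% late and 57.8% early at the median (-0.30 ± 0.02), without overlap, and that of miR-31-5p was 6.34% late and 7.58% early (-0.21 ± 0.05), with overlap. The levels of members such as miR-21a-5p, miR-222-3p and miR-31-5p also rose. The trimming falls of this list are therefore partly those already counted among miRNAs with a raised level, and not a separate observation. The miR-30 list had trimming falls in 4 of 6 members and no rise (median -0.37).

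For 2 induced miRNAs, miR-155-5p and miR-149-5p, the shares are given at every time, and were picked out after their values were seen. Over 0, 1, 2, 4, 6, 8, 10 and 12 h the 3′ templated share of miR-155-5p was 21.9%, 22.9%, 66.9%, 71.2%, 62.0%, 53.2%, 45.3% and 41.4% in the first experiment, and 24.2%, 20.3%, 68.5%, 75.9%, 66.7%, 52.9%, 48.7% and 42.3% in the second. It was highest at 4 h in both, and late against early was not called (0.22 ± 0.30, adjusted p = 0.58). The trimmed share of miR-155-5p, an immune and serum response miRNA, was called lower (-1.10 ± 0.30, adjusted p = 0.0080), with early values from 8.38% to 30.5%. The reference share of miR-149-5p likewise peaked in the middle: its values were 26.7%, 28.6%, 48.2%, 65.7%, 65.0%, 53.6%, 43.6% and 37.8% in the first experiment, and 22.7%, 25.4%, 49.5%, 66.0%, 67.0%, 59.9%, 49.1% and 48.8% in the second.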

How the data were processed

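Small RNA was sequenced from 16 libraries of 1 cell line. The authors deposited raw read counts for each miRNA and end class, with 1 column per library, per the file headers. CASAVA 1.8.0 was used, per the submitters' processing notes. The aligner, miRBase release, build and rules for mismatches and shared reads were not given in the sources used here. Of 6511 entries, 1 identical duplicate was dropped. A miRNA's total summed the templated and non-templated entries of the reference, trim, 3′ and 5′ classes. The A, U, C, G and mixed entries repeat the non-templated 3′ reads and were not added again.

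Shares were tested with edgeR 4.0.16 (limma 3.58.1, R 4.3.3), quasi-likelihood F-test, on class counts with the log of the miRNA's own total as offset, so the coefficient is a log2 ratio of shares. The experiment number was a block and p-values were adjusted by Benjamini-Hochberg over all 622 shares. A feature needed a mean of 10 reads. The procedure was tested on simulated data. Levels used TMM and filterByExpr on all miRNAs. SE is the size of the log2 ratio over the square root of F. Library-wide shares used an exact permutation of phases within experiments (400 assignments).

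The design text calls the replicates independent experiments, and p-values measure the spread between these libraries only. Differences between the replicates of a time correlated at 0.916 to 0.936 over the 15 pairs of times, so replicate numbers pair the samples. The header names 2 sequencing runs, each holding 1 replicate number, so run and experiment cannot be told apart. Replicates differed beyond counting noise and none was a duplicate. Counting intervals would cover counting error only, as reads carry no molecular identifiers.

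miRNAs named are the 2 largest rises and falls in percentage points in each class among calls with the same sign in both experiments, the 5 most abundant, and up to 6 with the most classes called, plus members of family lists. The members and lists were chosen with earlier results of these data known. Alternatives were no block, DESeq2 1.42.0, limma on logit shares, templated entries as denominator, the class-wide shift removed, other minimums, all 16 libraries, each experiment alone, 0 h left out, each library left out and, chosen after the data were seen, miR-21a-5p left out of library-wide shares. The class-wide shift was a TMM factor for each class and library. Sequences are from RefSeq.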

Additional observations from a re-analysis of the deposited data

Results flagged for a closer look

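Of 162 groups of 6 libraries examined for a library far from the others, 7 had one, and chance alone marks about 1 group in 20. The 5′ extended share of miR-222-3p was 0.880% in late 10 h replicate 2, against 0.400% to 0.564% in the other late libraries. For miR-27b-3p, 3 early libraries stood apart in 1 class each. Its C share was 0.163% in 1 h replicate 2 (others 0.177% to 0.184%), its 3′ templated share 3.72% in 0 h replicate 2 (others 4.06% to 4.24%), and its trimmed share 45.5% in 2 h replicate 2 (others 42.3% to 42.7%). The trimmed share of miR-335-3p was 13.3% in early 2 h replicate 2 (others 9.48% to 10.8%). In early 0 h replicate 1, miR-99b-5p had a reference share of 51.4% (others 53.4% to 54.2%) and a trimmed share of 33.7% (others 31.6% to 32.3%).

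Classes outside the comparison also differed. Reads with mixed non-templated bases at the 3′ end averaged 2.88% of all reads in late libraries, above the early range of 2.49% to 2.59%. All non-templated 3′ reads together averaged 11.5% in late libraries, above the early range of 10.4% to 11.0%.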

How the results depend on the processing

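Of 622 shares, 315 were called. The count was 198 with no replicate block and 193 with replicate 2 alone, and 284 to 314 with 1 library left out. All 11 other settings tried were within 1.5 times of it. Class counts that moved further were, with no block, A 25 (65 with it), U 21 (36), C 9 (22), G 3 (6) and 5′ extension 7 (12). With the class-wide shift removed C had 10. A minimum of 1000 CPM left 391 shares to test, of which 224 were called. Reference reads then had 44 calls (68) and trimmed reads 39 (63), counts drawn from fewer miRNAs. At a minimum of 50 class reads, which left 500 shares, G had 3. Replicate 1 alone gave 42 for reference, 19 for U and 5 for 5′ extension. Replicate 2 alone gave 37 for reference, 40 for trimmed, 23 for 3′ templated (43), 23 for U, 13 for C, 2 for G and 6 for 5′ extension. Of the library-wide differences in percentage points, A (0.445) and U (-0.493) no longer passed with no block, at exact permutation adjusted p = 0.266 and 0.118. As medians over miRNAs, 3′ templated (0.0442) and C (0.00449) did not pass and U reversed (0.129). With templated reads as denominator reference (-1.08) and trimmed (-0.565) did not pass. Without miR-21a-5p reference (-0.495), trimmed (-0.226) and 3′ templated (0.254) did not pass, and 5′ extension (-0.0145) did, at exact permutation adjusted p = 0.03. Leaving out 1 library gave -1.77 to -1.05 for reference, -0.809 to -0.616 for trimmed, 1.11 to 1.65 for 3′ templated, 0.364 to 0.490 for A, -0.561 to -0.433 for U and 0.427 to 0.510 for C. With the class-wide shift removed, the log2 ratios of the miR-22-3p reference share (0.047, adjusted p = 0.0010), the miR-27b-3p A share (-0.0018) and the miR-26a-5p C share (-0.081) changed sign. With no replicate block, 15 of the named shares lost their call at nearly the same ratio: those of A in let-7c-5p (0.34), miR-130b-3p (-0.19), miR-26a-5p (0.42), miR-27b-3p (0.26) and miR-92a-3p (0.33), those of C in let-7c-5p (0.39), miR-26a-5p (0.32) and miR-27b-5p (-0.58), those of G in let-7b-5p (0.24), miR-335-3p (0.63) and miR-92a-3p (-0.16), and those of miR-149-5p reference (0.54), miR-143-3p trimmed (0.11), miR-335-3p 3′ templated (-0.56) and miR-92a-3p U (-0.36) reads. Level calls were within 1.5 times of 120 with any 1 library left out. The causes of these changes were not tested. Classes with few reads, C, G and 5′ extension above all, could be tested in 52, 42 and 32 of the 112 miRNAs, and a change in the others was not detectable at this depth.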
